A study of Mus musculus with 4 samples.

Results

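The 7 genes described here encode the bile acid sensor of the liver and the proteins around it: Nr1h4, Nr0b2, Nr5a2, Hnf4a, Fgfr4, Klb and Mafg. They were chosen by symbol, as genes of bile acid sensing and feedback, and all 7 were present among the 32285 genes of the count matrices. The study sequenced single nuclei from mouse liver after a fast of 16 to 24 h and from fed control mice, and its title asks how bile acid genes are patterned in space. Each of the 4 libraries was 1 nuclear preparation from pooled frozen liver (50 mg, 8 mice), with 2 preparations per feeding state. The labels and series text used here state no strain, sex, age or agent. Nothing in the labels says whether the preparations of a state came from separate mice, so p-values measure the spread between preparations, which may be technical.

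Bile acids are made from cholesterol in hepatocytes, and the nuclear receptor FXR (Nr1h4) binds them. FXR induces SHP (Nr0b2), a repressor without a DNA-binding domain that acts on LRH-1 (Nr5a2) and HNF4 alpha (Hnf4a), activators of the bile acid synthesis gene Cyp7a1. In the intestine FXR also induces a hormone of the FGF family that reaches hepatocytes through the receptor FGFR4 (Fgfr4) and its co-receptor beta-klotho (Klb), and the small MAF protein MafG (Mafg) is another FXR-induced repressor of bile acid synthesis genes. Hepatocytes are arranged between the portal tract and the central vein, and Cyp7a1 is known as a gene of the central side.

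Promoter sequence is shown for 4 members: Nr0b2, the target of the feedback loop, and the 3 genes that were lower on the central side of the lobule. The sequences come from RefSeq on GRCm38.p6 and run 5' to 3' on the gene's strand. Each was taken from the 250 bases before the RefSeq start, and stretches inside exons of the GENCODE M21 annotation of the gene were left off. The sequences are Nr0b2 at chr4:133553126-133553375 (plus strand), Nr1h4 at chr10:89506659-89506908 (minus), the downstream of 2 Hnf4a starts at chr2:163546943-163547154 (plus) and Klb at chr5:65348161-65348313 (plus). The Klb window ran to 65348410, and its side next to the start was left off in this way. Capitals mark matches to TCAAGG, the core letters bound by LRH-1, or to GTTAAT, a half-site of HNF1 alpha, on either strand.
Nr0b2: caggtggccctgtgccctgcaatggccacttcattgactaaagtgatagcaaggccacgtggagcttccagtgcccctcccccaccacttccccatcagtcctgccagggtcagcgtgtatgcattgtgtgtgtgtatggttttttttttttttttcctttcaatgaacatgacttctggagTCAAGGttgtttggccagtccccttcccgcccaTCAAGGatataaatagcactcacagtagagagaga
Nr1h4: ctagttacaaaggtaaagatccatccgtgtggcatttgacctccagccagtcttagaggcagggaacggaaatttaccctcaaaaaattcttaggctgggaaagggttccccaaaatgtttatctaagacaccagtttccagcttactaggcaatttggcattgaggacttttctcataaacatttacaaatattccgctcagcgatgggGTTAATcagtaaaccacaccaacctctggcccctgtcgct
Hnf4a: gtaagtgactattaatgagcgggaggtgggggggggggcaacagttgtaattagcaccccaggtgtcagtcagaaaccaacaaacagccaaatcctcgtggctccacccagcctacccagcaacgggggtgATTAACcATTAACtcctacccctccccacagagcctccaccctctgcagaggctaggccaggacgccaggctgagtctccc
Klb: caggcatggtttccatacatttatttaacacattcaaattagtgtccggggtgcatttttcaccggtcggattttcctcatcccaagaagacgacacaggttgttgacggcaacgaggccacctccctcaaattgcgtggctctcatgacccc
The Nr0b2 promoter held 2 TCAAGG matches, which began 68 and 35 bases before the start. At least 1 match was present in 12.5% of 32851 mouse promoters of 250 bases. The downstream Hnf4a promoter held 2 GTTAAT matches on the minus strand, so they read ATTAAC above, 81 and 74 bases before the start. The bases just after that downstream start matched no GENCODE M21 transcript of Hnf4a. The upstream Hnf4a start held none of these matches. The Nr1h4 promoter held 1 such match 40 bases before its start, the upstream of 2 Nr5a2 starts held 1 at 236 bases, and 6.43% of all promoters held at least 1. The Nr1h4 start used here lies inside the GENCODE gene, whose 5' end is at 89533585. Other letter strings were searched in the same way: AGGTCANTGACCT (the FXR inverted repeat, in 0.00609% of promoters), CAAAGTCCA (an HNF4 element, 0.384%), CTTTGA (a TCF/LEF core, 13.8%) and TGTTTAC (a forkhead element, 3.17%). None of those was found in the 250 bases before any member's start. A match here is a match of letters, not a measured binding site.

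After filtering, 29726 nuclei formed 20 clusters, and 10 clusters with 18766 nuclei were named hepatocytes from markers such as Alb and Apob. Between 3744 and 5392 hepatocyte nuclei per library gave 6664983 to 20940027 unique molecular identifiers (UMIs, counts of single captured RNA molecules). A hepatocyte nucleus of fed 2 held a median of 1282 UMIs, against 2546 to 3240 in the other libraries. Fed 2 also had the largest share of counts on Gm42418, a gene that overlaps ribosomal RNA, at 4.33% against 0.200% to 0.978%. Fed 1 held a cluster of 1932 nuclei led by the acute phase genes Saa2 and Saa1, and its hepatocytes carried 5633 CPM (UMIs of a gene per 1000000 UMIs of the summed nuclei) of 17 acute phase genes against 1055 to 2173 CPM elsewhere. In hepatocyte sums, 14 immediate early genes came to 115 and 68.8 CPM in the fasted and 150 and 207 CPM in the fed libraries, and 8 stellate markers to 21.7 and 12.4 CPM against 47.5 and 62.0 CPM. The part of these differences in the levels of the members was not tested. Of the 10 hepatocyte clusters, 8 drew 94.6% to 99.5% of their nuclei from 1 library, so no test compared clusters between feeding states. Pairs of libraries shared 12 to 42 cell barcodes.

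Nr1h4 was the only member with both fasted libraries above both fed libraries in hepatocytes. Its level in summed hepatocyte counts was 1546 and 1376 CPM in fasted 1 and fasted 2, and 1197 and 1222 CPM in fed 1 and fed 2. Such an order, fasted above fed without overlap, was found for 20.6% of the 13984 genes tested, so 1 of 7 members is near the share of all genes. The fitted log2 fold change of Nr1h4, fasted minus fed, was 0.23 (SE 0.30), with an adjusted p of 0.980 in edgeR's quasi-likelihood test (Benjamini-Hochberg over all genes). Nr1h4 lies on the minus strand at chr10:89454234-89533585 (GRCm38).

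**Figure D1:**
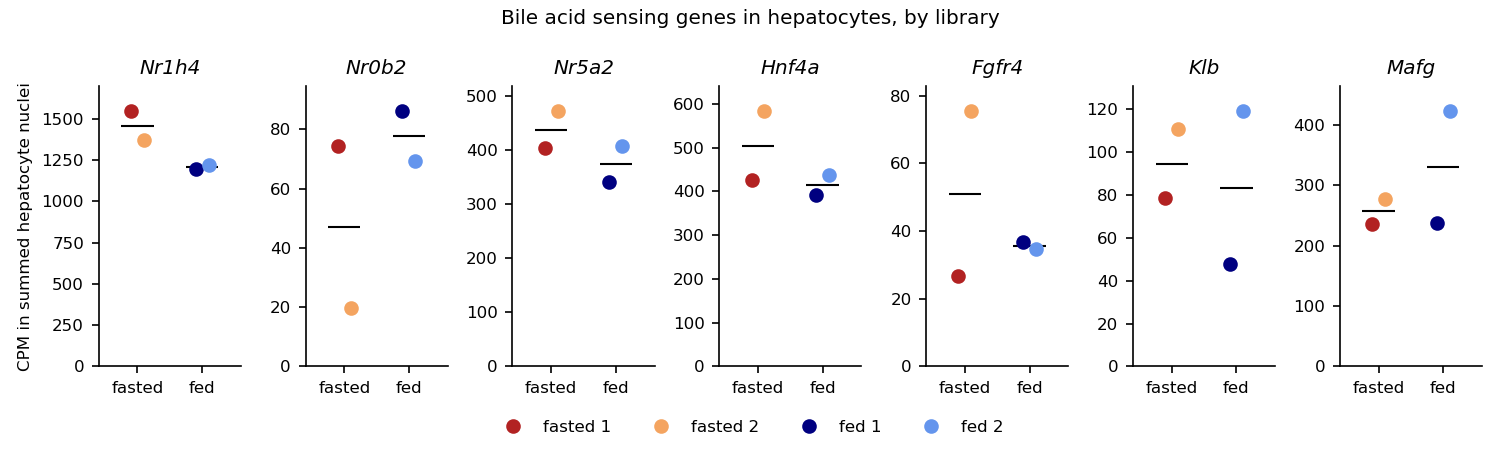
CPM of each member in summed hepatocyte nuclei (linear axes from 0, a separate scale per gene), with 1 point per library and a bar at the mean of each feeding state. Fasted 2 sits apart from the other libraries for Nr0b2 (19.8 CPM) and Fgfr4 (75.3 CPM), fed 2 for Mafg (422 CPM), and only the Nr1h4 groups are separate.

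Nr0b2, the FXR target SHP, differed most between libraries and mainly between the fasted ones. It stood at 74.4 CPM in fasted 1, 19.8 in fasted 2, 86.0 in fed 1 and 69.3 in fed 2. Fasted 2 was the low library, while fasted 1 lay between the fed libraries, so the groups overlapped. The 2 fasted libraries differed 3.76-fold and the 2 fed libraries 1.24-fold. The fitted difference, fasted minus fed, was -0.77 on the log2 scale (SE 0.59, edgeR adjusted p = 0.901), and it rested on fasted 2: without that library it was -0.12, and without fasted 1 it was -1.97 (adjusted p = 0.626). Without the acute-phase cluster the fed 1 level was 96.0 CPM. The gene is short, at chr4:133553376-133556536 on the plus strand.

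The share of nuclei with a Nr0b2 UMI showed the same low library. With each nucleus thinned to 1500 UMIs, 10.1% of hepatocyte nuclei had a Nr0b2 UMI in fasted 1 (95% Wilson interval 9.25 to 11.0), 3.25% in fasted 2 (2.75 to 3.82), 10.2% in fed 1 (9.33 to 11.1) and 8.94% in fed 2 (7.61 to 10.5). Thinning left out 595, 336, 729 and 2200 shallower nuclei in these libraries, and the unthinned shares were 17.8%, 6.89%, 17.2% and 10.0%. In endothelial nuclei, which should lack the gene and had median depths of 768 to 886 UMIs, the unthinned share was 0.645% to 1.96%. Thinned to 1500 UMIs, it was 2.88% of 104 endothelial nuclei in fasted 1, 2.44% of 82 in fasted 2 (0.671 to 8.46), 1.61% of 62 in fed 1 and 0 of 17 in fed 2, where the interval reached 18.4%. The hepatocyte shares of fasted 1 and fed 1 were above the endothelial intervals of their libraries. Those of fasted 2 and fed 2 were inside them, but with 82 and 17 endothelial nuclei the thinned shares could not separate them from background. In summed counts, fed 2 held 69.3 CPM of Nr0b2 in hepatocytes and 6.49 CPM (1 UMI) in endothelial nuclei. Fasted 2 held 19.8 CPM in hepatocytes and 12.4 CPM in endothelial nuclei, which is closer. The intervals cover counting error only.

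The nuclear receptors that SHP acts on were not separated by feeding state. Nr5a2 (LRH-1; minus strand, chr1:136842571-136960448) was at 404 and 472 CPM in the fasted and 342 and 408 CPM in the fed libraries. Hnf4a (plus strand, chr2:163506808-163572910) was at 426 and 582 CPM fasted and 392 and 437 CPM fed. In both cases fasted 2 was the highest library and the groups overlapped, fasted 1 lying below fed 2. The log2 fold changes were 0.19 (SE 0.32) for Nr5a2 and 0.25 (SE 0.33) for Hnf4a, with edgeR adjusted p-values of 0.994 and 0.984, and Hnf4a came to -0.03 without fasted 2. Hnf4a shares 34913 bases with the antisense gene Hnf4aos, which was counted at 663, 1420, 327 and 647 CPM in the same order of libraries and was also highest in fasted 2. The 2 genes were counted separately, but no source used here states whether counting used strand. Whether reads from Hnf4aos entered the Hnf4a count was not tested.

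Both parts of the FGF receptor complex varied between preparations of the same state. Fgfr4 (plus strand, chr13:55152640-55168759) was at 26.8 CPM in fasted 1, 75.3 in fasted 2, 36.8 in fed 1 and 34.7 in fed 2, so the fed libraries lay between the fasted ones. Klb (plus strand, chr5:65348314-65384007) was at 78.5 and 111 CPM in the fasted and 47.6 and 119 CPM in the fed libraries, and here the fasted libraries lay between the fed ones. The log2 fold changes were 0.50 (SE 0.53) for Fgfr4 and 0.13 (SE 0.53) for Klb, with edgeR adjusted p-values of 0.959 and 0.996. Leaving out 1 library turned the sign of either gene: Fgfr4 was -0.48 without fasted 2, and Klb was -0.18 without fasted 2 and -0.42 without fed 1. Klb was 1.03 without fed 2, and Fgfr4 was 1.07 without fasted 1.

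Mafg (minus strand, chr11:120625117-120633600) was high in 1 library only. It stood at 237 and 278 CPM in the fasted and 237 and 422 CPM in the fed libraries. Fed 2, the high library, was also the shallowest and the one richest in Gm42418, and the part of either in the Mafg level was not tested. The log2 fold change was -0.41 (SE 0.41, edgeR adjusted p = 0.947), 0.15 without fed 2 and -0.81 without fed 1. Mafg overlaps Sirt7 on the same strand by 124 bases, and Sirt7 was counted at 54.9 to 81.0 CPM.

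No member passed the feeding test in hepatocytes at an adjusted p under 0.05, by edgeR or by DESeq2, and none had an unadjusted p under 0.05 by either tool. The background was low as well: edgeR called 1 of 13984 genes (0.00715%) and DESeq2 called 1.12%, while 6.84% had an unadjusted p under 0.05 by edgeR and 7.28% by DESeq2. In the 5 other cell types that had 20 or more nuclei per library throughout, edgeR gave no call among the 33 tests of members that passed the low-count filter, Nr0b2 and Fgfr4 being too sparse in B or plasma cells. The smallest unadjusted p there was 0.0850, for Klb in cholangiocytes. Of all genes tested, edgeR called 0% in B or plasma cells and in Kupffer cells or macrophages, 0.125% in cholangiocytes, 0.0604% in endothelial and 0.0405% in stellate nuclei.

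**Figure D2:**
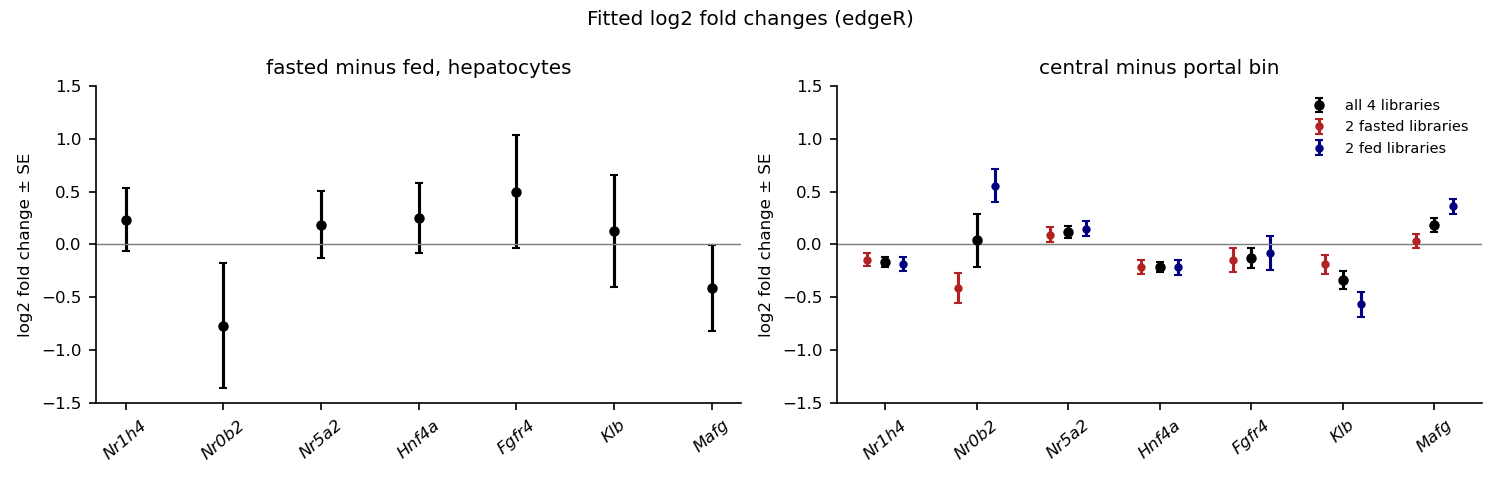
Fitted log2 fold changes with standard errors for fasted minus fed hepatocytes (left) and for the central minus the portal bin (right), the latter over all 4 libraries and within each feeding state. On the left, points for Nr0b2 and Mafg lie below 0 and the other 5 above it, all with wide error bars. On the right, Nr1h4, Hnf4a, Klb and Fgfr4 lie below 0 in every fit, though Fgfr4 did not pass the test. Nr0b2 has opposite signs in the fasted and fed libraries.

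Along the lobule, 3 of the 7 members passed the test, all with lower levels on the central side. Nuclei were ordered by 8 pericentral and 10 periportal landmark genes, none of them a member, and the outer of 3 equal bins were compared within libraries. The landmark Cyp2f2 shows the scale of the axis, at 349 to 526 CPM in the portal and 36.9 to 76.2 CPM in the central bins. Klb, Hnf4a and Nr1h4 were lower in the central bin in all 4 libraries, and Nr5a2 and Mafg were higher there in all 4. Of the 11463 genes tested, 15% were lower and 17.2% higher centrally in all 4 libraries.

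Klb, the beta-klotho co-receptor, had the largest difference between bins of the members that passed the test. It went from 84.1 to 73.7 CPM from the portal to the central bin in fasted 1, from 112 to 101 in fasted 2, from 56.0 to 42.5 in fed 1 and from 160 to 95.2 in fed 2. The central bin was lower in every library, and fed 2 fell the most. Over 6 equal layers from portal to central, fed 2 fell at each step, from 187 to 86.0 CPM. The fall was not steady elsewhere: fasted 2 went from 108 CPM in layer 1 to 122 in layer 3 and 92.5 in layer 6. The log2 fold change, central minus portal, was -0.34 (SE 0.09, edgeR adjusted p = 0.0123), and the adjusted p stayed between 0.000278 and 0.0475 in the 9 alternatives tried.

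Hnf4a and Nr1h4 fell less steeply. Hnf4a went from 441 to 406 CPM in fasted 1, from 629 to 524 in fasted 2, from 413 to 366 in fed 1 and from 485 to 414 in fed 2. Nr1h4 went from 1591 to 1464, from 1428 to 1301, from 1258 to 1115 and from 1331 to 1189 CPM in the same order. Both receptors fell in every library, and the Hnf4a drop was widest in fasted 2. The log2 fold changes were -0.21 (SE 0.05, edgeR adjusted p = 0.00853) for Hnf4a and -0.16 (SE 0.05, edgeR adjusted p = 0.0304) for Nr1h4. The Hnf4a call was lost without fasted 2 (-0.18, adjusted p = 0.124). The Nr1h4 call was lost without any 1 library: the adjusted p was 0.118 without fasted 1, 0.174 without fasted 2, 0.0798 without fed 1 and 0.0714 without fed 2, at fold changes of -0.15 to -0.18. It was also lost with nuclei thinned to 1000 UMIs (-0.13, adjusted p = 0.104). These 3 of 7 members compare with 8.1% of all genes called lower centrally, and 7.92% were called higher. DESeq2 also called these 3 members, among 5.57% of all genes called lower.

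**Figure D3:**
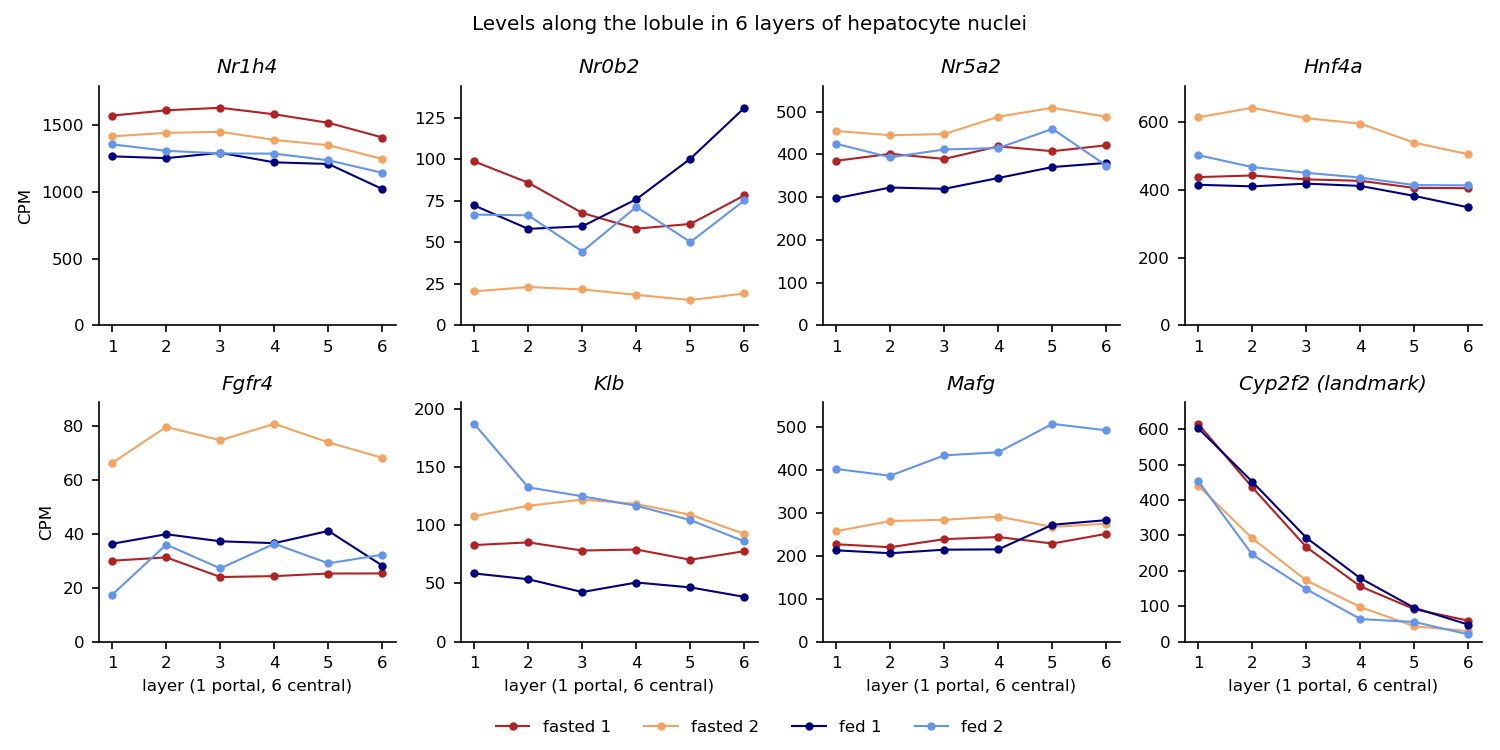
CPM in 6 equal layers of hepatocyte nuclei from portal (1) to central (6), 1 line per library, with Cyp2f2 as a landmark (linear axes from 0). Nr1h4 and Hnf4a are lowest in layer 6 in all libraries, but the fall is not steady. Nr1h4 is highest in layer 3 of fasted 1 (1629 CPM), fasted 2 (1449 CPM) and fed 1 (1292 CPM), and in layer 1 of fed 2 (1355 CPM). Nr0b2 reaches 131 CPM in layer 6 of fed 1 only.

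Mafg and Nr5a2 had higher central levels in all 4 libraries but did not pass the test. Mafg went from 224 to 240 CPM in fasted 1, from 270 to 271 in fasted 2, from 210 to 278 in fed 1 and from 395 to 501 in fed 2. Bins differed least in fasted 2 and most in the fed libraries. Its log2 fold change of 0.19 (SE 0.07) had an edgeR adjusted p of 0.0704, which fell under 0.05 without fasted 2 (0.27, adjusted p = 0.0369), without a low-count filter (0.0162) and at 1000 UMIs (0.0387). Nr5a2 differed by 0.12 (SE 0.05, edgeR adjusted p = 0.178) and Fgfr4 by -0.13 (SE 0.09, edgeR adjusted p = 0.463). The Fgfr4 bins held 25.3 to 73.1 CPM, and its direction differed between libraries, with fed 2 alone higher in the central bin.

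Nr0b2 had no common direction along the lobule. It went from 91.9 to 69.1 CPM in fasted 1, from 21.8 to 17.1 in fasted 2, from 65.0 to 115 in fed 1 and from 66.4 to 62.6 in fed 2. Fed 1 was the only library with more Nr0b2 on the central side. Over 6 layers it went from 72.2 CPM in the portal layer to 131 CPM in the central layer of fed 1, and from 66.7 to 75.2 CPM in fed 2. The central cluster of fed 1, with Slc1a2 and Lgr5 among its leading genes, also stood apart, with 161 CPM of Nr0b2 against 80.6 and 68.9 CPM in the other 2 large hepatocyte clusters of that library. In the other libraries nuclei of another central cluster, with Slc1a2 and Glul among its leading genes, held 83.6 CPM in fed 2, 80.3 in fasted 1 and 18.0 in fasted 2. These cluster values are a description, since 99.4% of the fed 1 cluster came from that library. The log2 fold change over all libraries was 0.04 (SE 0.25, edgeR adjusted p = 0.957), and without fed 1 it was -0.35 (adjusted p = 0.0374).

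The test of whether the gradient itself differed between states called no member, by edgeR (0.157% of all genes called) or by DESeq2 (0.0262%). At an unadjusted p under 0.05 were 3 members, Nr0b2, Klb and Mafg, against 7.45% of all genes in edgeR, and in DESeq2 only Nr0b2, against 1.43%. Nr0b2 had the largest difference, at -0.97 (SE 0.21, edgeR adjusted p = 0.115), where a negative value means a more portal pattern in the fasted libraries. The value was -0.32 without fed 1 and -1.22 without fed 2, so it rested on fed 1. In that library the acute-phase cluster held 68.9 CPM of Nr0b2 and the central cluster 161 CPM. The part of the acute-phase cluster in the value was not tested. The adjusted p was under 0.05 with 5 bins (-1.16, 0.00934), at 1000 UMIs (-0.71, 0.0429) and without a low-count filter (1.48e-05), and DESeq2 gave 1.00 after rounding. Mafg came to -0.33 (SE 0.10, edgeR adjusted p = 0.332) and Klb to 0.38 (SE 0.15, edgeR adjusted p = 0.540).

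Levels in other cell types are a description, because clusters were formed from the same nuclei. Hepatocyte RNA was present in every type: the sum of 8 hepatocyte markers stood at 30.5% to 90.0% of its hepatocyte level in the other nuclei of the same library. Members at or below that share were read as background. Each neighbouring pair of cell types in the order of mean levels had overlapping ranges, for all 7 members.

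Nr1h4 in stellate nuclei, the retinoid-storing pericytes of the sinusoid, stood out from that background. Its level there was 1458, 1359, 1731 and 1644 CPM in fasted 1, fasted 2, fed 1 and fed 2, which is 94.3% to 145% of the hepatocyte level. The marker sum was at 30.5% to 72.3% in the same nuclei, and each of the 8 single markers was below Nr1h4 in every library. In the remaining types Nr1h4 lay between 625 and 1408 CPM, lowest on average in endothelial nuclei. A feeding difference in stellate nuclei was not called (-0.24, SE 0.56, edgeR adjusted p = 1.00 after rounding).

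Nr5a2 was above the marker share in all 4 libraries in cholangiocytes, the lining cells of bile ducts, and in endothelial nuclei. Cholangiocytes had 455, 398, 379 and 372 CPM, or 84.3% to 113% of the hepatocyte level, beside a marker share of 41.0% to 76.3%. Endothelial nuclei had 301, 339, 339 and 325 CPM, or 71.8% to 99.3%, beside 49.1% to 77.1%. Of the 8 single markers, 7 were below Nr5a2 in every library in cholangiocytes and 4 in endothelial nuclei. The fed 2 endothelial value, 79.6% against a marker share of 77.1%, was the closest to background.

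Fgfr4 was above the marker share in all 4 libraries only in cholangiocytes, from few counts. The UMIs there numbered 20, 16, 6 and 3, or 49.2, 101, 30.3 and 139 CPM, which is 82.5% to 183% of the hepatocyte level in fasted 1, fasted 2 and fed 1 beside a marker share of 41.0% to 76.3%. In every library 7 of the 8 single markers were below it. Hnf4a was highest on average in hepatocytes and was below the marker share in every library in endothelial, stellate and Kupffer cell or macrophage nuclei, at 24.8% to 80.9% of its hepatocyte level. Klb was below it in every library in endothelial nuclei (22.6% to 49.1%). Nr0b2 exceeded the marker share in at most 2 libraries of any type, and Mafg in at most 3, in endothelial nuclei.

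**Figure D4:**
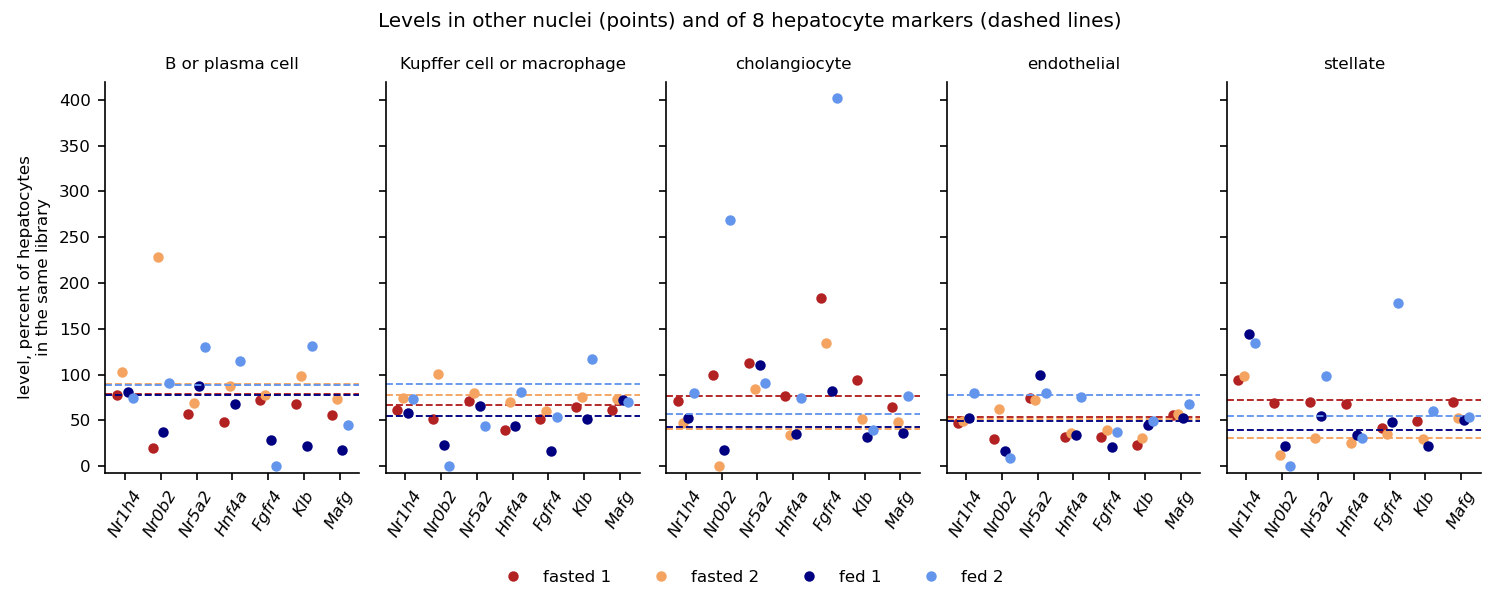
Level of each member in 5 other cell types as a percentage of its hepatocyte level in the same library (points), with dashed lines at the percentage for the sum of 8 hepatocyte markers in that library. Stellate Nr1h4, cholangiocyte Nr5a2 and Fgfr4 and endothelial Nr5a2 lie above the line of their own library in all 4 libraries.

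Co-detection asked whether the members appear in the same hepatocyte nuclei more often than their separate shares give. With 14906 nuclei thinned to 1500 UMIs, the most frequent number of members detected per nucleus was 2 in every library, in 34.5% to 38.2% of nuclei, and 1 nucleus held all 7. For each of 21 pairs the observed number of nuclei with both was set beside the product of the shares in the library. The ratio of observed to expected lay between 0.938 and 1.11 over all libraries, and its median over pairs was 1.00 to 1.01 in each library. Pairs of other hepatocyte transcription factors had medians of 0.996 to 1.00. Single pairs of those factors ran from 0.407 to 1.75 within libraries, a wider range than the 0.788 to 1.29 of the member pairs.

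FXR and its target SHP were detected together about as often as their shares gave: 983 nuclei held both Nr1h4 and Nr0b2, against 978 expected. Nr1h4 was detected in 76.9% (fed 1) to 86.1% (fasted 1) of these nuclei. A ratio for any pair with Nr1h4 therefore had little room to rise above 1, and a value near 1 says little about the pair. The ratio was 0.993 and 0.931 in the fasted and 1.02 and 1.07 in the fed libraries. The receptor pair Fgfr4 and Klb had the highest ratio at this depth, 127 nuclei against 114 expected, but from few nuclei: 25, 73, 19 and 10 by library, at ratios from 0.788 in fed 2 to 1.29 in fed 1. The 2 repressors Nr0b2 and Mafg were found together in 405 nuclei against 373 expected, above 1 in all 4 libraries (1.03 to 1.27), and Fgfr4 with Mafg also in all 4 (1.01 to 1.11). With nuclei thinned to 1000 UMIs, Nr0b2 with Mafg stayed above 1 in all 4 libraries (1.02 to 1.37) and Fgfr4 with Mafg in 3 (0.967 to 1.20). At that depth Fgfr4 with Klb came to 1.08, and the highest ratio was that of Nr0b2 with Fgfr4, at 1.33 from 51 nuclei, which at 1500 UMIs had been the lowest (0.938, 61 nuclei). Taking expected numbers within lobule layers gave 378 for Nr0b2 and Mafg, and in fed 1 moved that ratio from 1.03 to 0.999.

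**Figure D5:**
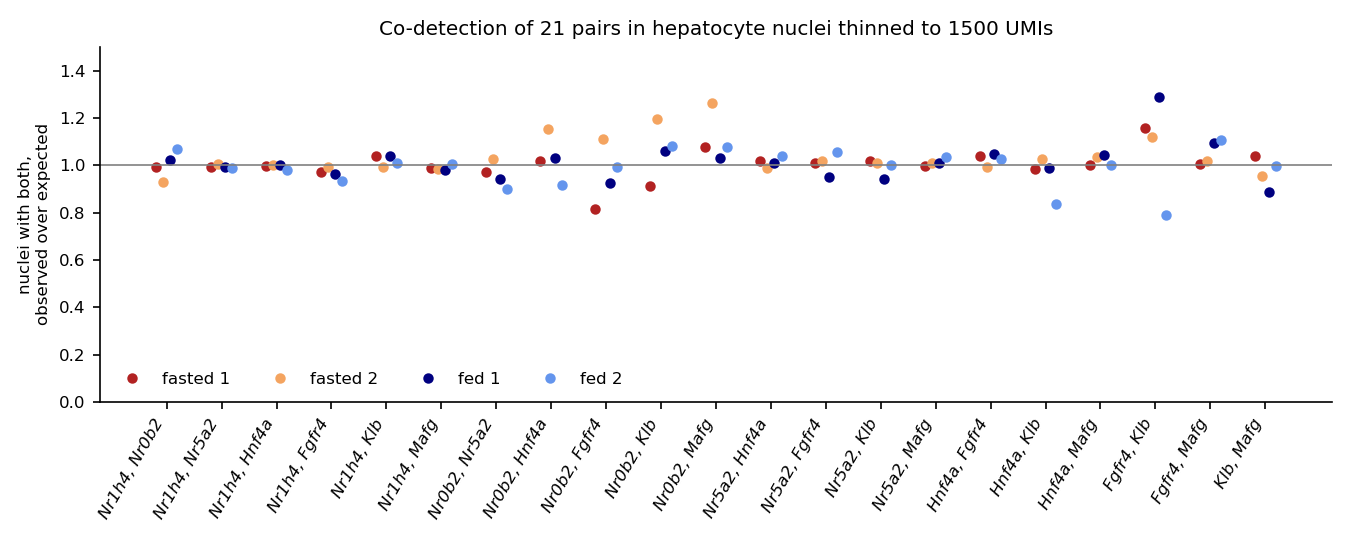
Nuclei with both members over the number expected from their shares, for 21 pairs and 4 libraries, in hepatocyte nuclei thinned to 1500 UMIs; the line marks 1. Pairs of abundant members lie close to 1, and the widest spread, from 0.788 to 1.29, belongs to Fgfr4 and Klb.

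Among 6064 other genes with at least 20 CPM in hepatocytes, likeness to each member was measured as Pearson's r over 24 library-by-layer points, centred within library. Layers of a library share nuclei, depth and the landmark order, so r is a description. Nr1h4 was most like Amdhd1 (0.95), Naaladl2 (0.95) and Rdh16f2 (0.94). Hnf4a was most like Zbtb7c (0.94), Nrg4 (0.94) and Cyp39a1 (0.94), a hydroxylase of bile acid synthesis. Klb was closest to Slc38a2 (0.90), Cth (0.89) and Ero1lb (0.88), and Mafg to Eci2 (0.88), Immp2l (0.87) and Sugct (0.86). The values were lower for Nr5a2 (Dnajc1, 0.84, Rab11fip2, 0.83, and Gramd1a, 0.82), Nr0b2 (Adipor2, 0.82, Pde3b, 0.75, and Cept1, 0.73) and Fgfr4 (Ankrd44, 0.79, 1600010M07Rik, 0.77, and Srsf7, 0.76). Among the members, Nr1h4 with Hnf4a had 0.87, Hnf4a with Klb 0.77 and Nr1h4 with Klb 0.70, while Mafg was at -0.64 with Nr1h4.

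The other genes of the pathway are given by counts from the same fits. For feeding, edgeR called none of 14 FXR partners and cofactors, 9 genes induced by FXR, 8 genes lowered by FXR feedback, 18 genes of FGF receptor signalling, 8 MAF proteins and partners or 13 hepatocyte transcription factors. Of these genes, DESeq2 called Bach2, a partner of small MAF proteins, and Onecut1, a hepatocyte transcription factor, both lower in the fasted libraries. Cyp7a1, the rate-limiting enzyme of bile acid synthesis, was at 462 and 193 CPM fasted and 119 and 83.4 CPM fed (log2 1.66, SE 0.46, edgeR adjusted p = 0.565), with no overlap.

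The genes with the smallest p of each list, up to 3 a list, had edgeR adjusted p-values of 0.537 to 0.912, so their log2 values, fasted minus fed, are given as values only. Among FXR partners they were 1.42 for Ppargc1a and -0.35 for Ncoa1, both coactivators. Among FXR-induced genes they were 0.90 for the flippase Abcb4, 1.15 for the apolipoprotein Apoc2 and -0.82 for Fetub. Besides Cyp7a1, the genes lowered by feedback gave -1.70 for Cyp7b1 and 0.85 for Cyp27a1, both sterol hydroxylases. The FGF pathway inhibitors Spry4 and Spred1 gave -2.26 and -0.77 and the receptor Fgfr3 -1.08. The small MAF gene Maff gave -1.44, its partners Bach2 and Bach1 -1.44 and -0.61, and the transcription factors Nr1i3, Onecut1 and Onecut2 gave 1.38, -2.45 and -0.56.

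Along the lobule, 4 of 8 genes lowered by FXR feedback were higher centrally and none was lower. They were Cyp7a1 (1.95), the sterol hydroxylase Cyp27a1 (0.91), the bile acid synthesis enzyme Hsd3b7 (1.13) and the uptake transporter Slco1b2 (1.31), all as log2 central minus portal by edgeR at an adjusted p of at most 0.000156. The median of the list was 0.48, and that of all genes tested was -0.01. Of all genes tested, 7.92% were called higher centrally and 8.1% lower. Of 9 FXR-induced genes tested, the phospholipid flippase Abcb4 (0.72) and the exporter Abcc2 (0.41) were higher, and Sdc1 (-0.77) and the conjugating enzyme Baat (-0.22) were lower. Of 14 FXR partners and cofactors, the heterodimer partner Rxra was higher (0.57), and the coactivator Ppargc1a (-0.94) and Prox1 (-0.21) were lower.

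Of 17 tested genes of FGF receptor signalling, the feedback phosphatase Dusp6 was higher centrally (1.26), and the receptors Fgfr1 (-2.51) and Fgfr3 (-0.30) were lower. Of 8 MAF proteins and partners, 2 were higher and 1 was lower, the higher ones being Nfe2l2 (0.28) and Bach2 (0.44). Of 13 hepatocyte transcription factors, 1 was higher and 2 were lower, among them Onecut2 (0.20, higher) and Onecut1 (-0.48, lower). With 7.92% of all genes called higher and 8.1% lower, the counts for FXR partners, FGF receptor signalling and transcription factors are near the background. No gene of these 6 lists was called by edgeR for a gradient that differed between feeding states.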

How the data were processed

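Nuclear RNA was measured by droplet sequencing (10x) in 4 mouse liver libraries, 2 fasted and 2 fed. The authors deposited gene by barcode matrices of UMI counts, made with Cell Ranger 6.0 on mm10, per the submitters' processing notes; the use of introns or strand is not stated there. Total UMIs were 8078755 to 30955600 per library, and 13.2% to 17.0% of stored matrix entries held 0. Groups came from the treatment labels. Barcodes under 500 genes or over 5% mitochondrial counts were dropped, and 232 to 1108 barcodes per library with the highest Scrublet scores (0.8% per 1000 barcodes) were removed as doublets, since the automatic threshold called 0, 1 or 1 in 3 libraries. Nuclei were clustered with scanpy 1.11.5 and leidenalg 0.10.2 and named from marker genes. Lobule position was the mean z score of pericentral minus periportal landmarks, with counts thinned to 1500 UMIs.

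Counts were summed per library and cell type or bin and tested with edgeR 4.0.16 (quasi-likelihood, TMM, filterByExpr, Benjamini-Hochberg over all genes tested, threshold 0.05) in R 4.3.3; bin tests had the library as a block. The method was also run on simulated counts that gave every gene the same spread between libraries. That run does not speak to the uneven spread between the preparations here. Alternatives were DESeq2 1.42.0, other scaling, filters, bins and doublet handling, a replicate block, and leaving out each library; removal of the acute-phase cluster, and leaving out libraries in the test of position by feeding, were chosen after seeing the data. Fold changes within a feeding state are shown without tests. The members and lists were chosen with earlier results of these data known. Named genes are the 7 members, listed pathway genes that passed a test or otherwise the 3 of a list with the smallest p, and the 3 genes most like each member along the lobule; some listed genes are not reported here. The genes most like each member over cell types are not described, because hepatocyte RNA was present in every type.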

Additional observations from a re-analysis of the deposited data

How the results depend on the processing

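The count of members called for feeding was 0 in each of the 13 fits, the replicate block included. The main fit did not use the replicate numbers as pairs, since the labels give them no shared batch. The difference between replicates 1 and 2 nevertheless correlated at 0.55 over 13984 genes between the states, from only 2 pairs. That correlation is no ground for leaving the pairing out, and whether replicates of the same number share a batch was not tested. With the replicate block, edgeR called 99 genes in all and Nr0b2 came to -1.03 (adjusted p = 0.345). In all, the fits called 0 genes with RLE scaling, 157 with DESeq2, 276 without a low-count filter, 0 with stored zeros counted as 1, 357 without fed 1, 261 without fed 2, 9 without fasted 1 and 4 without fasted 2, against 1. The count called along the lobule was 2 to 3 when 1 library was left out, but the members called changed. Nr1h4 was lost each time, and Hnf4a was lost without fasted 2. In their place Mafg passed without fasted 2, and Nr0b2, with its sign turned, passed without fed 1. The count for position by feeding was 1 (Nr0b2) with 5 bins, at 1000 UMIs and without a low-count filter. Signs turned under some settings. Nr0b2 position was -0.0174 with DESeq2 and -0.0265 at 1000 UMIs, and over the fits that left out 1 library it ran from -0.35 to 0.27. For position by feeding, Nr5a2 was 0.0077 with 5 bins and Fgfr4 0.083 at 1000 UMIs, and with 1 library left out Nr5a2 ran from -0.17 to 0.067, Hnf4a from -0.072 to 0.097 and Fgfr4 from -0.34 to 0.0045. For feeding, with 1 library left out, Hnf4a ran from -0.034 to 0.48, Fgfr4 from -0.48 to 1.07, Klb from -0.42 to 1.03 and Mafg from -0.81 to 0.15. At 1000 UMIs the co-detection ratio moved to 1.33 for Nr0b2 with Fgfr4 and to 0.975 for Hnf4a with Mafg. The cause was not tested. Where a state was left with 1 library, that library is assumed to vary like the others. With 2 libraries per state, a difference of the size seen for Nr0b2 is within the spread of the fasted preparations.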
